A study of Mus musculus with 18 samples.

Results

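Shores are the flanks of CpG-dense regions, and their methylation was followed in mouse embryonic stem cells (ESCs) that had lost Dnmt1, the maintenance DNA methyltransferase. An autosomal CpG was taken as dense when at least 25 CpGs lay within 250 bp on either side of it, itself included. A CpG that was not dense and lay 250 to 2000 bp from the nearest dense CpG belonged to a shore. By this rule, 1078549 of the 20364700 autosomal CpGs (5.30%) were shore CpGs, and they flanked 29065 of 29072 dense regions. Of the rest, 1432685 CpGs were dense, 474651 lay under 250 bp from a dense CpG without being dense, and 17378815 lay over 2000 bp away and are called distant here.

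CpG islands, the CpG-dense stretches found at many gene starts, are mostly free of DNA methylation in ESCs, while the genome around them is mostly methylated, so that a shore spans the change from the first state to the second. Methylation is copied to the new DNA strand at replication by Dnmt1, which Uhrf1 recruits to hemimethylated CpGs, and the de novo enzymes Dnmt3a and Dnmt3b can add methyl groups without such a template. Shores are known as places where methylation differs between tissues and cell states more often than within the islands themselves.

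Whole-genome bisulfite sequencing gave CpG calls, each a methylated or an unmethylated read of a CpG, in 9 control libraries (genotype Wildtype in the labels) and 9 Dnmt1 KO libraries. Each genotype had 2 replicates at days 1, 3, 9 and 11 and a single one at day 6. The methods described C57BL/6 ESCs with Dnmt1 loxP/loxP alleles and Cre recombinase switched on by tamoxifen, grown in serum and LIF, while the labels gave the strain of every library as E14. The sources used here did not state whether the control cells were untreated floxed cells or another line, and the methods listed a single line for the deletion of Dnmt1 alone, so genotype, line and tamoxifen cannot be told apart in any difference between Dnmt1 KO and control. No expression was measured in these libraries, so the ESC label could not be compared with marker genes.

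Libraries held 7190722 to 11158414 calls, and shores received 7695014 calls over the 18 libraries. This came to 0.396 calls per shore CpG and library, against 0.472 for distant and 0.279 for dense CpGs, so CpGs were summed over classes, distance bins or whole shores. In the mitochondrial genome, which is taken as unmethylated, 0.228% to 0.467% of calls were methylated. Within Dnmt1, the longest run of CpGs without a call in Dnmt1 KO at days 3 to 11 held 39 CpGs (NCBIM37 chr9:20744012-20745971). The control libraries had 6 to 29 calls there each, both Dnmt1 KO libraries of day 1 had 2, and the 0 calls of the 7 later Dnmt1 KO libraries are fixed by this choice.

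A dense region had a median length of 455 bp and 34 dense CpGs, and its shore a median of 36 CpGs, with quartiles of 26 and 47. An annotated transcription start lay within 250 bp of 13077 dense regions (44.98%), and their flanks are called gene-start shores. Along the shore the mean number of CpGs within 250 bp fell from 11.101 in the bin of 250 to 500 bp to 7.66 in the bin of 1750 to 2000 bp, where distant CpGs had 6.45. The GC content within the same window fell from 48.4% to 46.5%. The share of CpGs that lay in promoters, taken as the 1 kb before a start, fell from 27.7% to 3.77%.

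Dense regions of opposite state are shown by 2 genes that were picked only for the number of calls their shores had within their gene lists. They are Eef2, a translation elongation factor of every cell, and Dpep3, a dipeptidase of the male germline. For Eef2, 300 bases from the middle of the dense region are given, and for Dpep3 these and the 300 bases of its shore that held the most shore CpGs, read 5′ to 3′ from NCBIM37. Capitals mark CpGs. The Eef2 stretch was chr10:80639428-80639727 on the plus strand, and those of Dpep3 were chr8:108502984-108503283 and chr8:108501860-108502159 on the minus strand.
Eef2 dense region: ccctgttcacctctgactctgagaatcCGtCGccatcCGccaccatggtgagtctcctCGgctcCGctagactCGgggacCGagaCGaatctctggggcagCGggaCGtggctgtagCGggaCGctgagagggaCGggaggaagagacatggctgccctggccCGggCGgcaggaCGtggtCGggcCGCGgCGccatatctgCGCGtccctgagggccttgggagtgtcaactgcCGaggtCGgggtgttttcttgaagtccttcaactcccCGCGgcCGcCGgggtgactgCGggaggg
Dpep3 dense region: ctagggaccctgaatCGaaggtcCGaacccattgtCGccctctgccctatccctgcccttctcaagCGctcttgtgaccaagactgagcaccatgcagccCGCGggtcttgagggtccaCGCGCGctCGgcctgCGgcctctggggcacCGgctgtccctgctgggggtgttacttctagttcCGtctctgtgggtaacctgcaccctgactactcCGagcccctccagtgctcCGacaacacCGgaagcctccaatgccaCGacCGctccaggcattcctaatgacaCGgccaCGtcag
Dpep3 shore: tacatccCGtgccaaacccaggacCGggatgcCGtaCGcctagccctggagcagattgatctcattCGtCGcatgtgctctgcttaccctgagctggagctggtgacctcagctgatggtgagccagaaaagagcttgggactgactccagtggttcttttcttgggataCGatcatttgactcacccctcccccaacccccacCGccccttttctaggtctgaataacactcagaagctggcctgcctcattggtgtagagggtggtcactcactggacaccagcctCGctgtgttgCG

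The dense stretch of Eef2 held 29 CpGs, and the Dpep3 stretches held 20 in the dense region and 10 in the shore. In the dense stretch of Eef2, 0 of 96 control calls were methylated, which allows a level of up to 3.13%. In the dense stretch of Dpep3, by contrast, 97.3% of 113 control calls were methylated, with a 95% exact interval of 92.4% to 99.4%. The shore stretch of Dpep3 was at 86.4% of 22 calls in control (65.1% to 97.1%) and at 44.8% of 29 in Dnmt1 KO at days 6 to 11 (26.4% to 64.3%). These intervals cover counting error only, since calls from the same read or amplified copies are not independent.

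Shores lost most of their methylation between day 1 and day 3 after the deletion and were at a low, nearly constant level from day 6 on. The control libraries were at 65.6% and 63.5% on day 1, and at 63.2% and 62.6% on day 3. Later control libraries were at 65.6% (day 6), 63.5% and 61.8% (day 9), and 56.5% and 56.8% (day 11). The Dnmt1 KO libraries were at 57.9% and 58.2% (day 1), 24.6% and 25.6% (day 3), 16.9% (day 6), 17.6% and 18.5% (day 9), and 17.1% and 17.8% (day 11). At every day the Dnmt1 KO libraries were below the control libraries without overlap. The mean difference over days was -35.4 points, and a two-sided exact permutation test of the genotype labels within days gave p = 0.00077, the smallest that its 2592 arrangements can give. Its adjusted p (Benjamini-Hochberg over 18 tests) was 0.00093. With 2 libraries against 2, an exact permutation test of a single day cannot go below p = 0.33.

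The difference was -6.47 points at day 1 and -41.7 points over days 3 to 11. In Dnmt1 KO, 81.8% of the fall from day 1 to the mean of days 9 and 11 had been reached by day 3, and 79.8% in distant CpGs. Distant CpGs of Dnmt1 KO stood at 74.7% ± 0.525 (SD, n = 2) at day 1 and 26.2% ± 0.44 (n = 5) over days 6 to 11. In the 5 control libraries of days 6 to 11, distant CpGs were at 80.04% ± 3.26. The plot of each library by day shows the innermost bin, the whole shore and distant CpGs on the same scale.

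**Figure D1:**
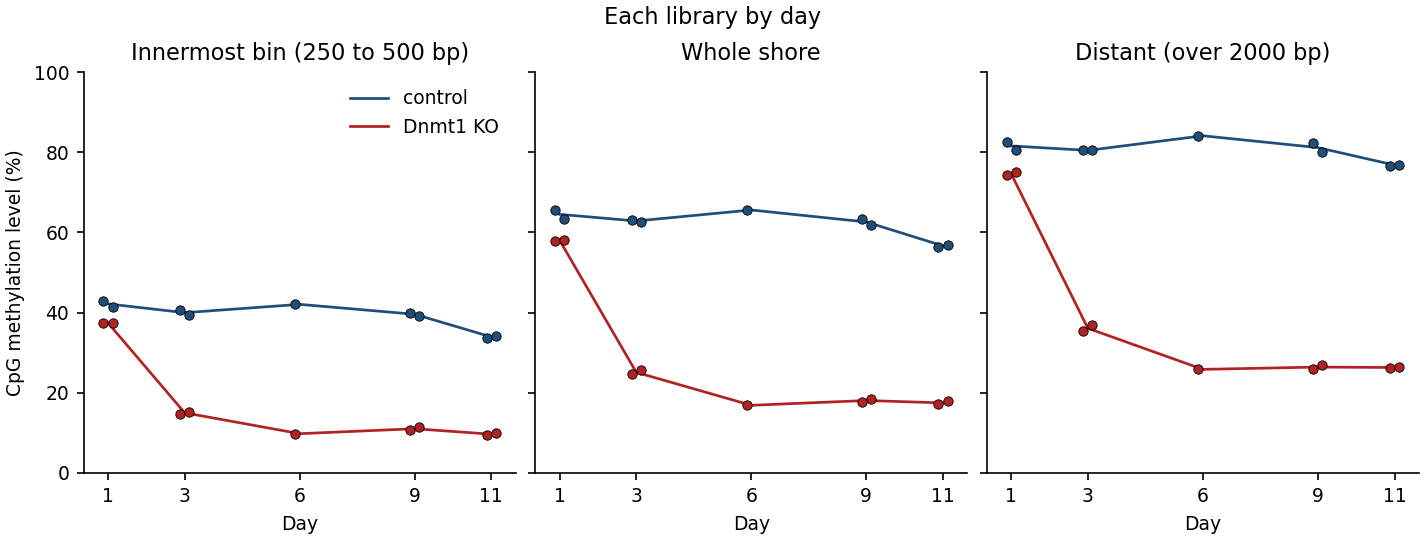
CpG methylation level (%) of each library (points) against the day of sampling in the innermost shore bin (250 to 500 bp), the whole shore and distant CpGs, with lines through the group means. Shores of Dnmt1 KO fell from a mean of 58.1% at day 1 to 25.1% at day 3 and 16.9% at day 6, and control stayed between 56.5% and 65.6%.

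Methylation rose outwards along the shore in every library of both genotypes. In control over days 6 to 11, the level was 37.8% ± 3.70 (SD, n = 5) at 250 to 500 bp, 53.1% at 500 to 750 bp, 63.6% at 750 to 1000 bp, 69.3% at 1000 to 1250 bp, 72.4% at 1250 to 1500 bp, 73.8% at 1500 to 1750 bp and 74.5% ± 3.89 at 1750 to 2000 bp. In Dnmt1 KO the same bins were at 10.2% ± 0.794, 14.6%, 17.9%, 20.2%, 21.3%, 22.1% and 22.3% ± 0.682. Further out the rise was small, to 77.0% in control and 24.3% in Dnmt1 KO at 4750 to 5000 bp. The outermost shore bin exceeded the innermost by 36.2 points ± 0.782 in the 9 control libraries and by 13.4 points ± 2.23 in Dnmt1 KO, over the 7 libraries from day 3 on. Exact sign-flip permutation tests over libraries gave adjusted p = 0.0078 and 0.016 (Benjamini-Hochberg over 12 tests), and the raw p of each was the smallest its number of libraries allows.

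**Figure D2:**
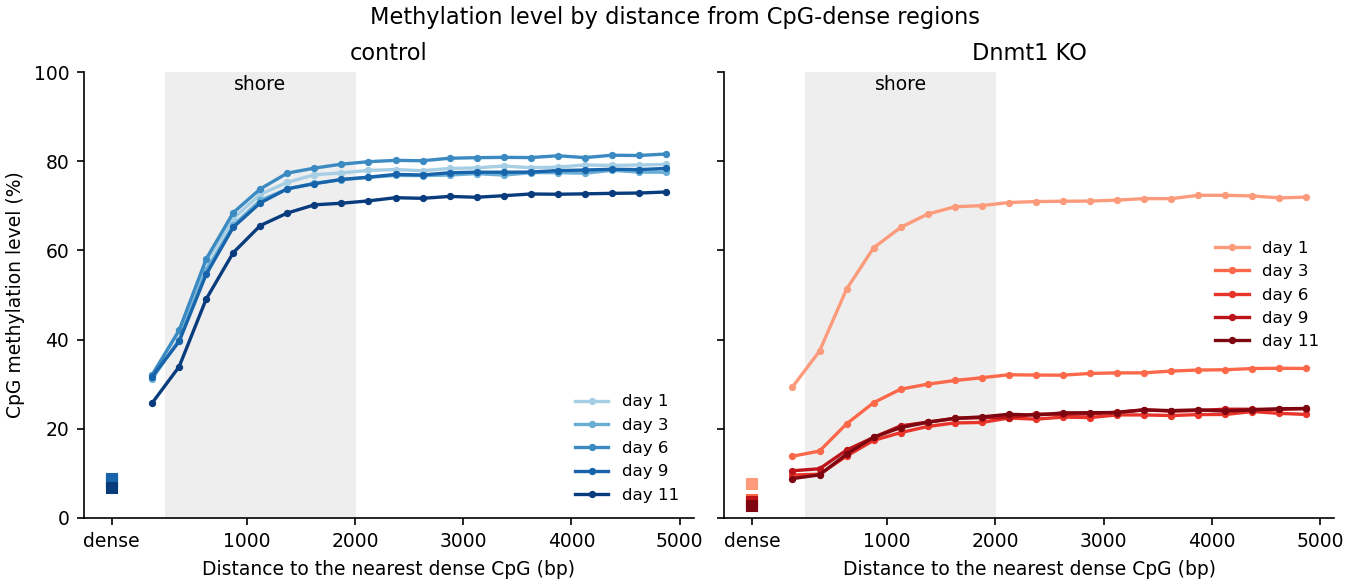
Mean CpG methylation level (%) of each genotype and day against the distance to the nearest dense CpG in 250 bp bins, with dense CpGs as squares at the left and the shore shaded. In control the level climbed from 37.8% in the innermost shore bin to 74.5% in the outermost over days 6 to 11, and in Dnmt1 KO from 10.2% to 22.3%.

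All 7 distance bins were lower in Dnmt1 KO, and the difference widened outwards. The mean difference over days was -23.0 points at 250 to 500 bp, -31.8 at 500 to 750 bp and -42.2 at 1750 to 2000 bp, each with adjusted p = 0.00093 in the exact permutation test. Relative to control the bins were closer to each other. Over days 6 to 11 Dnmt1 KO kept 27.0% of the control level in the innermost bin, 28.2% at 750 to 1000 bp and 29.97% in the outermost, against 28.9% for the whole shore and 32.8% for distant CpGs. Nearer than the shore the kept share was higher than in any shore bin. It was 32.9% for CpGs under 250 bp that were not dense and 39.98% for dense CpGs, which were at 3.11% in Dnmt1 KO and 7.77% in control. The base 2 logarithm of the ratio of the outermost to the innermost bin was 0.13 higher in Dnmt1 KO than in control over all days (exact permutation test, adjusted p = 0.00093), and it was higher at each of the 5 days without overlap. The share of CpGs in promoters, the GC content and the local CpG number changed along the same bins. Their part in the gradient was not tested, and bins at an equal local CpG number are only described.

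The reach of low methylation was also measured as the distance at which a library first attained 50% of its own distant level. In control it was 341 bp ± 8.81 (SD, n = 2) on day 1, 377 bp ± 14.8 on day 3, 375 bp on day 6, 391.7 bp ± 3.63 on day 9 and 449 bp ± 2.48 on day 11. In Dnmt1 KO it was 372 bp ± 4.83 on day 1, 500.4 bp ± 4.54 on day 3, 567 bp on day 6, 507 bp ± 19.2 on day 9 and 564 bp ± 16.0 on day 11. The mean difference of 115 bp had adjusted p = 0.00093 in the exact permutation test. Its direction depended on the definition of dense: with dense CpGs taken from 20 CpGs on, the difference was -7.27 bp, with adjusted p = 0.0037 in the exact permutation test.

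In control the inner shore was lowest at day 11. The innermost bin was at 42.2%, 39.98%, 42.1% and 39.6% on days 1, 3, 6 and 9. At day 11 the innermost bin of control was at 33.9% ± 0.222 (n = 2), which was 80.4% of its day 1 level, while the outermost bin was at 91.2% and distant CpGs at 94.1% of theirs. These shares were not tested.

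Shores were less methylated than distant CpGs in every library. The difference was -18.4 points ± 1.19 (SD, n = 9) in control and -9.33 points ± 1.17 (n = 7) in Dnmt1 KO at days 3 to 11, with exact sign-flip permutation tests at adjusted p = 0.0078 and 0.016. In points, shores were thus nearer to distant CpGs in Dnmt1 KO, by 7.64 points over all days. As a ratio they were further away, since the base 2 logarithm of the ratio of shore to distant level differed by -0.15 between Dnmt1 KO and control. Both differences between genotypes had adjusted p = 0.00093 in the exact permutation test.

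At an equal number of CpGs nearby, shores and distant CpGs also differed. In control over days 6 to 11, shore CpGs with 1 to 4 CpGs within 250 bp were at 73.2%, those with 5 to 9 at 65.2%, those with 10 to 14 at 53.1% and those with 15 to 24 at 41.1%, while distant CpGs of the same classes were at 80.1%, 80.7%, 79.3% and 76.6%. In Dnmt1 KO the shore classes were at 19.6% ± 0.582 (SD, n = 5), 18.7%, 15.9% and 13.1% ± 0.821, and the distant classes at 20.8% ± 0.4, 28.1%, 31.6% and 30.8% ± 1.07. The sparsest of the distant classes was thus the lowest in Dnmt1 KO but not in control. Summed over all distances, the shore classes fell with CpG number in both genotypes. In the innermost bin alone the Dnmt1 KO classes fell from 15.9% to 8.66%, while in the outermost they were at 20.6%, 23.5%, 22.8% and 20.1%. In control the classes of the outermost bin fell from 77.3% to 63.3%. Dnmt1 KO kept 26.8% of the control level in the sparsest shore class and 25.9% in the sparsest distant class, but 28.8% against 34.8%, 30.03% against 39.9% and 31.9% against 40.1% in the next classes.

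Weighted by the shore CpGs of each class, the difference of shores from distant CpGs was -18.7 points ± 1.34 (n = 9) in control and -11.3 points ± 0.953 (n = 7) in Dnmt1 KO at days 3 to 11. Exact sign-flip permutation tests gave adjusted p = 0.0078 and 0.016. The base 2 logarithm of the matched ratio was lower in Dnmt1 KO, at -0.23 over all days (exact permutation test, adjusted p = 0.00093). Levels also differed with distance within a class. Among CpGs with 5 to 9 CpGs nearby, the innermost bin was at 11.4% and the outermost at 23.5% in Dnmt1 KO over days 6 to 11. In control these bins were at 44.6% and 75.7%. Among CpGs with 1 to 4 CpGs nearby, the rise in Dnmt1 KO was smaller, from 15.9% to 20.6%. The differences with distance within a class were not tested.

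**Figure D3:**
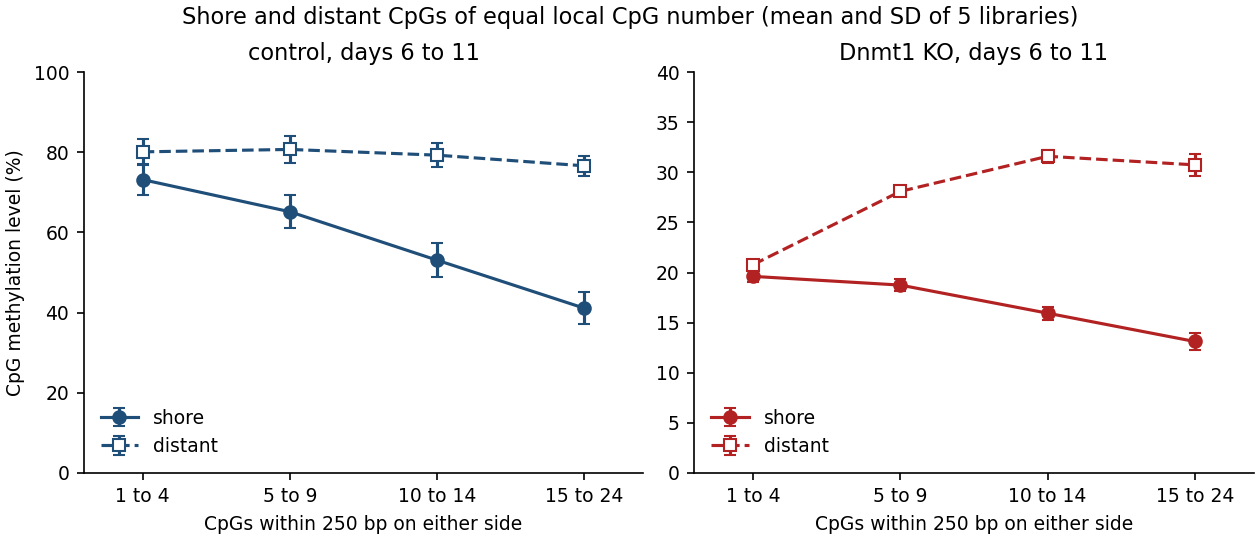
CpG methylation level (%) of shore (filled circles) and distant (open squares) CpGs against the number of CpGs within 250 bp, over days 6 to 11, with mean and SD of 5 libraries per genotype (the vertical scale of the Dnmt1 KO panel ends at 40%). In Dnmt1 KO the distant classes rose from 20.8% to 31.6% and 30.8%. The shore classes, summed over all distances, fell from 19.6% to 13.1%.

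The kind of dense region went with the level of its shore. Gene-start shores, which held 517861 of the shore CpGs, were at 54.7% in control and 13.7% in Dnmt1 KO over days 6 to 11, and all other shores at 70.6% and 23.5%. Gene-start shores were lower in every library, with a difference of -15.3 points ± 0.971 (SD, n = 9) in control and -10.3 points ± 0.959 (n = 7) in Dnmt1 KO at days 3 to 11 (exact sign-flip permutation tests, adjusted p = 0.0078 and 0.016). The gap was smaller in Dnmt1 KO by 4.14 points over all days (exact permutation test, adjusted p = 0.0041). Relative to control, gene-start shores kept 25.1% and the others 33.3%.

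For 11082 dense regions with starts on a single strand, the flank before the start was compared with the flank into the gene. The upstream flank was more methylated in every library, by 5.05 points ± 0.676 (n = 9) in control and 2.47 points ± 0.386 (n = 7) in Dnmt1 KO at days 3 to 11 (exact sign-flip permutation tests, adjusted p = 0.0078 and 0.016). At 250 to 500 bp over days 6 to 11, the upstream flank was at 34.1% and the downstream flank at 24.8% in control, and at 7.25% and 5.41% in Dnmt1 KO. At 500 to 750 bp the flanks were at 51.9% and 41.8% in control, and at 12.2% and 8.76% in Dnmt1 KO. At 1750 to 2000 bp they were at 73.7% and 72.5% in control, and at 21.2% and 19.96% in Dnmt1 KO.

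Shores were also split by the state of the dense region they flank. Of 20064 dense regions with at least 20 control calls, 15348 were at 20% or less over all control libraries (unmethylated) and 3197 at 50% or more (methylated), of which 218 held a gene start. The dense CpGs chose these classes, so their own control levels are a description only: 81.0% and 2.43% over days 6 to 11, with 25.7% and 1.21% in Dnmt1 KO. The shores of unmethylated regions were at 54.3% in control and 13.7% in Dnmt1 KO, and those of methylated regions at 81.5% and 29.1%. The shores of methylated regions were higher in every library, by 26.3 points ± 1.32 (n = 9) in control and 16.4 points ± 1.73 (n = 7) in Dnmt1 KO at days 3 to 11 (exact sign-flip permutation tests, adjusted p = 0.0078 and 0.016).

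The shores of methylated regions showed little gradient. Over days 6 to 11, no control bin was under 80.5% or over 82.0%, and in Dnmt1 KO they ranged from 28.1% to 30.01%. Around unmethylated regions the bins rose from 27.9% to 72.2% in control and from 5.84% to 20.2% in Dnmt1 KO. The shores of methylated regions kept 35.7% of the control level and those of unmethylated regions 25.2%. Whether local CpG number differs between these 2 kinds of shore was not tested.

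**Figure D4:**
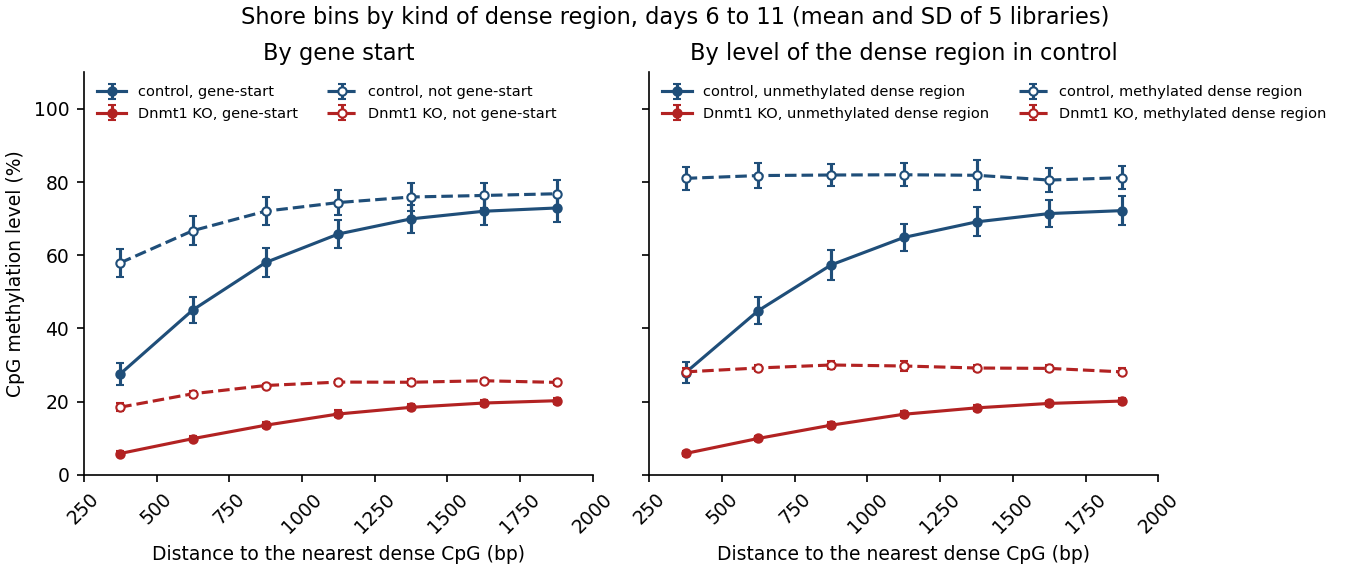
CpG methylation level (%) of the 7 shore bins against the distance to the nearest dense CpG over days 6 to 11 (mean and SD of 5 libraries per genotype), split by gene start (left) and by the control level of the dense region (right). The shores of methylated regions were flat, near 81% in control and 29% in Dnmt1 KO, and those of unmethylated regions rose from 27.9% to 72.2% in control.

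Single shores were then examined. With all control libraries pooled and all Dnmt1 KO libraries of days 6 to 11 pooled, 17998 shores had at least 50 calls in each. Of these, 11710 were gene-start shores. Over days 6 to 11 the median shore was at 63.2% in control, with quartiles of 47.2% and 76.3%, and at 15.1% in Dnmt1 KO, with quartiles of 9.30% and 23.0%. At 10% or less were 134 shores (0.745%) in control and 5125 (28.5%) in Dnmt1 KO, and at 50% or more were 12880 (71.6%) and 143 (0.795%). Shores at 80% or more over all control libraries had a pooled Dnmt1 KO level of 30.6%, which was 36.1% of their control level, while those between 40% and 60% had 11.5%, or 23.4%. Of the former 25.9% were gene-start shores and of the latter 81.8%. In the classes of 60% to 80%, 20% to 40% and under 20% in control, Dnmt1 KO kept 27.0%, 24.3% and 29.7% of the control level. The control levels in these shares are those of days 6 to 11, and these libraries were among those that chose the classes. The shares kept are therefore a description only.

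**Figure D5:**
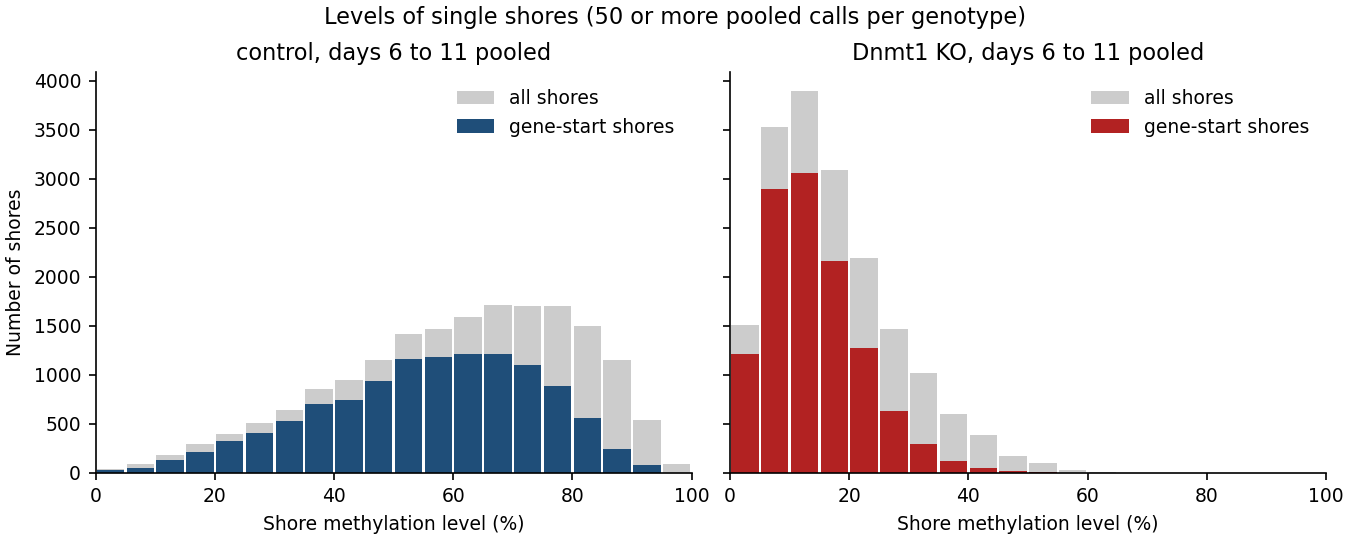
Number of shores by methylation level (%) in steps of 5 points, in control and in Dnmt1 KO with the libraries of days 6 to 11 pooled, for 17998 shores with at least 50 calls over all control libraries and over the Dnmt1 KO libraries of days 6 to 11 (grey, all shores, and coloured, gene-start shores). The median moved from 63.2% in control to 15.1% in Dnmt1 KO.

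A test of each shore needed at least 10 calls in every library, which 3944 of 29065 shores (13.6%) had. They were richer in CpGs, with a median of 50, and 2889 of them were gene-start shores, against 13077 of all 29072 dense regions. They were tested with a quasi-binomial model together with dense regions and windows of distant CpGs, 152316 features in all, and a shore was called where it differed by 10 points or more and its adjusted p was below 0.05. At day 1, 6 shores (0.152%) were called, beside 0.0361% of all features. At day 3 it was 3218 shores (81.6%, beside 94.2% of all features), at day 6 3226 (81.8%, beside 94.5%), at day 9 3473 (88.1%, beside 97.9%) and at day 11 3378 (85.6%, beside 96.4%). All called shores were lower in Dnmt1 KO. Day 6 had a single library per genotype, so its calls rest on the spread of the other days. The median difference at day 9 was -43.4 points over tested shores and -58.2 points over distant windows.

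Within Dnmt1 KO, 2885 tested shores (73.2%, beside 87.4% of all features) were lower at day 3 than at day 1, and 4 (0.101%, beside 0.019%) were lower at day 6 than at day 3. From day 6 to day 9 and from day 9 to day 11 the quasi-binomial test called 0 shores, beside 0.00131% and 0.000657% of all features. At an unadjusted p under 0.05 there were 317 and 325 of the 3944 shores, and limma on log odds called 0 in both steps as well, with 451 and 428 at an unadjusted p under 0.05. Data were simulated for the comparison of genotypes at day 9, over shores and distant windows without dense regions. Calls were drawn as independent, and all features but the lowered ones had the same level in both genotypes. In these draws the test found 82 of 100 features lowered by 50 points and 22 of 100 lowered by 30 points. Real replicates spread more than such draws and most features were called at day 9, so these shares need not hold for the real data. The steps within Dnmt1 KO were not simulated. For the step from day 1 to day 3, limma on log odds with a block for the replicate number called 1499 shores. Its share over all features is not given.

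The 6 shores called at day 1 were named after their values were seen, and the day 1 libraries chose them. They flanked the dense regions at the starts of Rcc1, Rab3ip, Cdc42bpb, Dhx16 and Cby1 (with 4933432B09Rik), and a region 23515 bp from Ifltd1. Rcc1 encodes the nucleotide exchange factor of Ran, Rab3ip one of Rab8, Cdc42bpb a kinase, Dhx16 an RNA helicase and Cby1 a protein of the ciliary base. Their differences at day 1 lay between -53.7 points (Dhx16) and -30.2 points (Rcc1). The shore of Cby1 was at 77.8% in control and 32.3% in Dnmt1 KO at day 1 (adjusted p = 0.0016, quasi-binomial test over all features), and the control level of this shore was 70.8% at day 9 and 35.3% at day 11. The shore of Cdc42bpb was at 76.5% in control and 32.4% in Dnmt1 KO at day 1, and at 41.4% and 34.5% in control at days 9 and 11. At day 11 Dhx16 was at 57.9% and Rab3ip at 54.8% in control. The count rested on single libraries: it was 0 without either control library of day 1 and 1 without the first Dnmt1 KO library of day 1, and limma on log odds called 2.

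The 4 shores called between days 3 and 6 in Dnmt1 KO lay at the starts of B4galt3, Mzf1, Tktl2 and Trak1, and were likewise named after their values were seen, and the libraries of days 3 and 6 chose them. At day 6, which had 1 library, they were at 1.33%, 4.08%, 0% (of 24 calls) and 1.82%. At day 9 they were at 18.4%, 14.3%, 47.2% and 10.3%, and at day 11 at 25%, 20%, 32% and 15.7%. With cytosines over 20 calls left out, 0 shores were called in this step. Without the first Dnmt1 KO library of day 3 the count was 1, and limma on log odds called 35, of which 34 were lower.

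The shores with the highest Dnmt1 KO level at day 9 were picked from 1975 tested shores with at least 20 Dnmt1 KO calls at days 9 and 11 and a control level of at least 60% at day 9. None of the 5 flanked a gene start, and their dense regions were small, with 6 to 15 dense CpGs. The shore in Arhgef16 (chr4:153654891-153655141) was at 73.3% in Dnmt1 KO at day 9 and 87.9% in control over all libraries. Its levels at days 6 and 11 had no part in the choice, and there it was at 57.4% and 32.8%, beside medians of 17.9% and 19.2% over the 1975 shores. The shore in Scn10a, a sodium channel gene (chr9:119519029-119519177), was at 43.3% and 55.3% at days 6 and 11. The shore in Pla2g15, a lysosomal phospholipase gene, was at 28.8% and 38.6%, that in Slc20a2, a phosphate transporter gene, at 22.7% and 46.9%, and that of a region 41463 bp from SNORA17 at 30.4% and 48.3%. All 5 were thus above both medians on the days whose levels did not choose them. They were, though, at 81.7% to 88.5% over all control libraries. Single shores at 80% or more there had a median Dnmt1 KO level of 30% over days 6 to 11. Pla2g15 and Slc20a2 lay below 30% at day 6. With the libraries of day 11 pooled, all 5 shores lay above it at that day. In the single libraries of day 11, Arhgef16 was at 35% and 29.2% (of 24 calls), and Slc20a2 at 25% (of 12 calls) and 51.9%. SNORA17 was at 26.1% (of 23 calls) and 62.9%, while both libraries of Scn10a and of Pla2g15 lay above 30%. The pooled 95% exact intervals of Arhgef16 (21.6% to 45.7%) and Pla2g15 (26.0% to 52.4%) at day 11 included 30%. At day 6 the 95% exact interval was 17.1% to 43.1% of 52 calls for Pla2g15 and 7.82% to 45.4% of 22 for Slc20a2. For SNORA17 it was 13.2% to 52.9% of 23, and each of these intervals included the median of 17.9%.

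The smallest adjusted p at day 9 belonged to the shores at the start of Sfi1 (chr11:3093015-3093702), in Dux and Gm8257, in Dsp, which encodes the desmosome protein desmoplakin, and at the start of 2610005L07Rik. Sfi1 differed by -59.2 points at day 9 (adjusted p = 3.6e-71, quasi-binomial test over all features). It had 10.6 calls per CpG and library, Gm8257 4.71, 2610005L07Rik 2.40 and Dux, which is known as a tandem array, 2.17, beside 0.396 over all shores. Calls from near-identical copies may be joined at such shores, and the part of this in their values was not tested. Dsp had 0.484 calls per CpG and library and was at 88.7% in control and 23.9% in Dnmt1 KO at day 9, a difference of -64.8 points (adjusted p = 2.1e-13, same test). At days 6 and 11, whose levels had no part in its choice, it was at 50% of 52 calls and 29.0% in Dnmt1 KO.

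Few shores had little methylation in control. Of 18076 shores with at least 100 control calls, 115 (0.636%) were at 10% or less over all control libraries, and 64 of them flanked a gene start. Over these 115 shores the pooled level was 6.48% in control and 2.47% in Dnmt1 KO at days 6 to 11. The best covered lay in Tdgf1, a Nodal co-receptor gene of ESCs, at the starts of Ier2 and Tnpo2, and near Gm5146 and Ang. The Tdgf1 shore flanked a region with only 1 dense CpG, and was at 2.496% of 641 calls in control and 0.424% of 236 calls in Dnmt1 KO at days 6 to 11. The Ier2 shore, that of an immediate early gene, was at 3.70% of 541 and 0.42% of 238 calls, and that of Tnpo2, a nuclear import receptor gene, at 5.46% of 458 and 0.4% of 250. The shores near Gm5146, at 3.94% of 457 and 3.38% of 237 calls, and near Ang, at 4.22% of 403 and 4.22% of 237, were as high in Dnmt1 KO or nearly so. The difference of Ier2 at day 9 was 0.156 points (adjusted p = 0.93, quasi-binomial test over all features).

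Shores of 6 gene lists were described by their pooled levels over days 6 to 11 and set beside all 13077 gene-start shores, whose median was 57.8% in control and 12.7% in Dnmt1 KO among the 11710 with enough calls. For a single gene, the level in control is over all control libraries and that in Dnmt1 KO over days 6 to 11, where no day is given. No list was tested as a whole. Of the 11710 gene-start shores with enough calls, 11698 were lower in Dnmt1 KO, and of the tested ones 2516 of 2889 were called lower at day 9, beside 97.9% of all features called at that day, against which the counts of each list are also to be read.

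Housekeeping genes, which are used in every cell, had low shores: 21 of 22 genes matched a dense start, and the median of the 18 shores with enough calls was 38.5% in control and 7.19% in Dnmt1 KO, with all 18 lower in Dnmt1 KO. At day 9, 3 of 7 tested shores were called, all lower. Gapdh, a glycolytic enzyme gene, had a shore that ranged from 0% to 30% over the 9 control libraries, with a median of 7.14%, and stood at 2.27% of 132 calls in Dnmt1 KO at days 6 to 11. Rpl13a, a ribosomal protein gene, was at 13.8% in control and 5.49% in Dnmt1 KO. The shore of Snrpd3, a splicing factor gene, was at 44.98% and 2.94%. The shore of Eef2 was at 25.2% in control, and in Dnmt1 KO at 0% at day 6, 6.67% and 0% at day 9, and 32.3% and 23.5% at day 11, so that both libraries of day 11 and 1 of day 9 lay within the control range of 3.37% to 48.2%.

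Developmental transcription factors, whose islands are long and are silenced by Polycomb in ESCs, had a median of 31.03% in control and 7.04% in Dnmt1 KO over 25 shores, 24 of them lower in Dnmt1 KO. At day 9, 3 of 4 tested shores were called, all lower. Pax3, a neural crest and muscle factor, ranged from 28.1% to 66.7% over the control libraries with a median of 44.0%, and was at 8.11% at day 6, 0% and 13.3% at day 9, and 0% and 12.1% at day 11 in Dnmt1 KO. Every Dnmt1 KO library of Pax3 from day 6 on was thus below every control library, and the difference at day 9 was -39.6 points (adjusted p = 0.0016, quasi-binomial test over all features). Hoxc10 differed by -19.4 points (adjusted p = 0.10), and Nkx6-1, with 14.4% in control and 5.32% in Dnmt1 KO, was not covered well enough to be tested.

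Genes of pluripotency, the ESC state, had dense starts in 13 of 20 cases, and their 14 shores with enough calls had a median of 26.0% in control and 6.45% in Dnmt1 KO, all lower in Dnmt1 KO. At day 9, 6 of 9 tested shores were called, all lower. Klf5, a Krüppel-like factor that sustains ESC self-renewal, was at 38.8% in control and 9.76% in Dnmt1 KO, and differed by -30.5 points at day 9 (adjusted p = 7.1e-05, quasi-binomial test over all features). Tbx3 differed by -20.9 points (adjusted p = 0.00021, same test) and Klf2 by -13.7 points (adjusted p = 0.13). The shore of Sox2, a core factor of the ESC state, was at 10.5% of 392 control calls and 0.412% of 243 Dnmt1 KO calls, and differed by -6.49 points at day 9 (adjusted p = 0.10).

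Germline genes, which are kept silent by promoter methylation in other cells, had the most methylated shores of the 6 lists. The median over 16 shores was 81.4% in control and 24.3% in Dnmt1 KO, and all 16 were lower in Dnmt1 KO. Their dense CpGs were at 44.7% in control and 13.2% in Dnmt1 KO, against 2.69% and 1.23% over all gene-start regions. Both tested shores were called lower at day 9. Dpep3 had a control median of 93.8%, with a range of 57.1% to 96.6%, and was at 37.2% at day 6, 47.1% and 45.5% at day 9, and 42.1% and 29.4% at day 11 in Dnmt1 KO. All later Dnmt1 KO libraries of Dpep3 were below the control range, and the difference at day 9 was -40.0 points (adjusted p = 0.00057, quasi-binomial test over all features). The shores of Tdrd1, a piRNA pathway gene, Tex101, a sperm surface protein gene, and Sycp3, a synaptonemal complex gene, stood at 40.5%, 32.9% and 22.5% in Dnmt1 KO, from 88.1%, 85.0% and 49.8% in control.

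At imprinted control regions a single parental copy is methylated. The list of genes of such loci took all 16 dense regions at the starts of 13 genes, whether or not each is the control region itself. The median shore level was 64.6% in control and 8.03% in Dnmt1 KO over 15 shores, all lower in Dnmt1 KO. At day 9, 5 of 6 tested shores were called lower. Their dense CpGs were at 25.7% in control and 2.45% in Dnmt1 KO. Plagl1, a zinc finger gene expressed from the paternal copy, went from 80.8% to 17.8% and differed by -68.4 points at day 9 (adjusted p = 1.7e-09, quasi-binomial test over all features). Mest, which is likewise expressed from the paternal copy, differed by -50.1 points (adjusted p = 1.2e-05) and Peg3 by -33.2 points (adjusted p = 0.00057). Nespas, with 14.2% in control and 7.18% in Dnmt1 KO, differed by -3.69 points (adjusted p = 0.45).

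Genes of the DNA methylation machinery had dense starts in 11 of 12 cases, with a median shore level of 38.3% in control and 8.99% in Dnmt1 KO over 12 shores, all lower in Dnmt1 KO, and 1 of 2 tested shores was called lower at day 9. Tdg, which excises oxidised methylcytosine, differed by -26.3 points (adjusted p = 0.035, quasi-binomial test over all features). Hells, a chromatin remodeller, differed by 3.198 points (adjusted p = 0.71, same test). The shore of Dnmt1 itself was at 35.8% of 229 control calls and 7.48% of 147 Dnmt1 KO calls, and that of Dnmt3a at 19.5% and 5.36%.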

How the data were processed

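Genomic DNA of 18 ESC libraries was bisulfite converted and sequenced genome-wide. The authors aligned the reads to NCBIM37 with Bismark (version 0.12.3 per the submitters' processing notes) and deposited, for each cytosine covered, a percent methylated and the counts of methylated and unmethylated calls. The deposited percent was not used, and levels were recomputed from the deposited counts after summing calls over both strands of a CpG in the reference genome.

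Dense CpGs at most 500 bp apart were joined into a dense region, a shore was assigned to its nearest region, and a gene start within 250 bp marked the region. Classes were compared between genotypes by exact permutation of genotype labels within days, and within libraries by exact sign flips, both two-sided, with Benjamini-Hochberg adjustment. A quasi-binomial model was fitted to shores, dense regions and windows of 50 distant CpGs that had 10 calls or more in each library, and its dispersion was moderated with limma 3.58.1 in R 4.3.3. The lone libraries of day 6 were assumed to vary like the others. CpGs under 250 bp from a dense CpG that were not dense entered no test of single features. Other steps used Python 3.11.15, numpy 2.4.6, pandas 2.3.3, scipy 1.17.1 and matplotlib 3.10.9.

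The test was tried on independent calls simulated for day 9 over shores and distant windows, in which 8 of 151839 features were called falsely. Replicates of the real libraries spread more, so the rate of false calls may differ there. Between replicates of a group, the chi-square per shore averaged 1.76 to 2.27, where independent calls would give 1. No source said that replicates came from separate cultures, so p-values measure the spread between these libraries, which may be technical. Intervals are 95% exact binomial, and a level of 0 is limited by 3 calls of the total. Both cover counting error only.

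The members, gene lists and tests were chosen with earlier results of these data known. Shores are named by the gene whose start lies in the dense region, or the nearest gene. Named were the 5 tested shores with the highest Dnmt1 KO level at day 9, the 5 with the smallest adjusted p at day 9, the 5 best covered shores at 10% or less in control, and the 4 best covered of each gene list. The values of 1 of these and 1 stretch of shore sequence are not reported here. Alternatives covered the limit for dense CpGs, the minimum of calls, cytosines over 20 calls, limma on log odds, a replicate block, and leaving out each library.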

Additional observations from a re-analysis of the deposited data

Results flagged for a closer look

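The difference between Dnmt1 KO and control at day 1 was set against its mean over days 3 to 11 by exact permutation of the day labels within each genotype. For the whole shore the 2 differed by 35.2 points (adjusted p = 0.035). In the distance bins from the innermost to the outermost they differed by 22.1, 31.3, 37.4, 39.7, 41.9, 42.4 and 42.6 points, each with adjusted p = 0.035. With 1 library left out, the whole shore and each bin lost the call in 2 of 16 repeats.

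Of 10 contrasts within the shore and against distant CpGs, 8 differed between day 1 and the later days as well. The change in the difference of shores from distant CpGs was -8.94 points, and -7.96 points at a matched local CpG number, and those of the corresponding base 2 logarithms of the ratio were 0.15 (adjusted p = 0.043) and 0.23 (adjusted p = 0.037). With 1 library left out, the first of these lost its call in 10 of 16 repeats and the second in 2. The rise from the innermost to the outermost bin changed by 20.5 points. The difference of gene-start from other shores changed by -5.80 points, that of upstream from downstream flanks by 2.70 points, and that of shores of methylated from those of unmethylated regions by 11.15 points. The base 2 logarithm of the ratio of the outermost to the innermost bin (-0.12, adjusted p = 0.30) and the distance at which a library attained 50% of its distant level (-97.4 bp, adjusted p = 0.16) did not pass the same exact permutation test.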

How the results depend on the processing

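Of 414 repeats of the 18 comparisons between genotypes, 413 kept their direction and their side of the threshold, and all 264 repeats of the comparisons within libraries did. The exception was the distance at which a library attained 50% of its distant level, at -7.27 bp with dense CpGs taken from 20 CpGs on. The contrasts of day 1 with later days, of which 16 of 18 were called, stayed on their side of the threshold in 361 of 396 repeats, and 34 repeats lost a call and 1 gained it. For the whole shore the contrast ranged from 34.2 to 36.3 points with 1 library left out. Without the first or the second Dnmt1 KO library of day 1 it was 35.4 and 35.1 points, and the call was lost. Fewer arrangements of the day labels were then left, and the part of this in the loss was not tested.

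With at least 20 calls in every library, 137 shores were tested and 1, 108, 114, 121 and 119 were called at days 1, 3, 6, 9 and 11, with 105 from day 1 to 3 and 0 from day 3 to 6 in Dnmt1 KO. With at least 5 calls, 12180 were tested and 9327, 9373, 10311 and 10003 were called at days 3 to 11, with 8179 from day 1 to 3, but 4 at day 1 and 3 from day 3 to 6. Limma on log odds called 2 at day 1 and 35 from day 3 to 6. Without cytosines over 20 calls, 0 were called from day 3 to 6. With 1 library left out, 0 to 7 were called at day 1 and 1 to 4 from day 3 to 6. In the main setting, 94.2%, 94.5%, 97.9% and 96.4% of all features were called at days 3 to 11, and 87.4% from day 1 to 3. Shares over all features are given for that setting only, not for these alternatives or for the replicate block. Whether the shifts in count are particular to shores was not tested.

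Replicates with the same number did not deviate together over single shores (r between -0.0151 and 0.00678 over 3944 shores). These shores had a median of 26 calls per library, and counting error of that size could hide a shared origin. Whether same-numbered libraries belong together is therefore not known. With a replicate block, the shore difference was -35.4 points (exact permutation test, adjusted p = 0.0047), and limma called 2 shores at day 1, 1499 from day 1 to 3 (2432 without the block) and 10 from day 3 to 6.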
